A study of Homo sapiens with 10 samples.

Results

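The 9 receptors described here belong to the tumour necrosis factor (TNF) receptor superfamily and were followed in SH-SY5Y cells, a human neuroblastoma line with a noradrenergic neuroblast character. They were FAS, TNFRSF10A, TNFRSF10B, TNFRSF10C, TNFRSF10D, TNFRSF12A, TNFRSF1A, TNFRSF19 and TNFRSF21. The genes were picked by name from the expression tables, with earlier results of these data known. These 9 stand among 23415 genes kept in both tables, each on 1 row. The libraries fall into 4 groups, all grown in DMEM/F12 medium with serum and harvested 72 h after transfection. LncND, a long non-coding RNA, was targeted with siRNA at 100 nM in 3 libraries, set against 3 libraries with scrambled siRNA. A mimic of miR-143-3p was given at 50 nM in 2 libraries, set against 2 with scrambled miRNA. All groups are 1 cell line. No label says that replicates came from separate cultures, and p-values here therefore reflect only library-to-library spread, possibly technical. LncND has no row under that name, so the depletion of the siRNA's target was not analysed here.

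TNF receptors sit at the cell surface and bind ligands of the TNF family, such as FASLG (for FAS), TNFSF10 (TRAIL, for the TNFRSF10 receptors) and TNFSF12 (TWEAK, for TNFRSF12A). Receptors with a cytoplasmic death domain recruit adaptors such as FADD or TRADD, which can lead to caspase-8 activation and apoptosis, while TRAF proteins link the receptors to NF-kappaB and kinase signalling. FAS and TNFRSF10B are known p53 target genes, and many neuroblastoma lines, SH-SY5Y among them, are known for low CASP8 expression.

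Levels are given as FPKM, in which the fragments of a transcript are divided by its length and by the library's mapped fragments. This allows genes to be compared per length. The siRNA and miRNA libraries stand in separate tables that were normalized separately, so each treatment was tested only against its own control. Within a group, libraries correlated at 0.988 to 0.997, against 0.962 to 0.968 between groups of a table. Depth was estimated at 13.9 to 44.4 M fragments per library. For this, the most common length-scaled value among short olfactory receptor genes was assumed to be worth 1 fragment. That value rested on 3 to 16 genes a library, so fragment counts below are rough. LncND siRNA replicate 1 carried a total of 1.67823e+06 FPKM, against 428238 to 478709 FPKM in the other libraries. Summed over genes of at least 300 bp, all 10 libraries lay between 405607 and 447764 FPKM.

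The line's markers were checked first. Of 8 noradrenergic neuroblast markers, 7 reached a mean of 1 FPKM in each of the 4 groups, while blood and endothelial markers summed to at most 0.622 FPKM in any library. The epithelial markers EPCAM and CLDN4 alone of 5 reached 1 FPKM in LncND siRNA cells, where the list summed to 3.01 to 3.61 FPKM, against 1.0 to 1.15 FPKM with scrambled siRNA. Of 6 Schwann and glial markers 1 (S100B) reached 1 FPKM, and the list summed to 6.3 to 6.65 FPKM in LncND siRNA cells, against 3.48 to 3.64 FPKM in scrambled siRNA cells. With the mimic the noradrenergic list summed to 1600.0 FPKM, against 2150.0 to 2160.0 FPKM with scrambled miRNA, and the Schwann and glial list to 3.35 to 3.39 FPKM, against 4.17 to 4.98 FPKM with scrambled miRNA. The part of these markers in the results below was not tested. In such bulk RNA, fewer cells that express a gene and less RNA per cell cannot be told apart.

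Differences were tested with limma on log2(FPKM + 1), which understates the change of low genes, with Benjamini-Hochberg adjustment over all genes tested and a threshold of 0.05. A gene was tested where its mean over the libraries of a table reached 1 FPKM. In the comparison of LncND siRNA with scrambled siRNA, 7 of the 9 receptors passed that filter: 5 were higher with LncND siRNA, 1 was lower and 1 did not pass the test. Of all 12601 genes tested, 36.6% were higher and 30.3% lower, so the share of calls among the receptors is read against a background in which 66.9% of genes changed. FAS and TNFRSF10A passed the filter only through the LncND siRNA libraries, since their scrambled siRNA means were 0.984 and 0.915 FPKM. In the comparison of the miR-143-3p mimic with scrambled miRNA, 6 receptors were tested: 1 was higher with the mimic, 4 were lower and 1 did not pass. The background there was 24.6% higher and 38.6% lower of 12558 genes (63.3% in either direction), and FAS passed the filter only through the scrambled miRNA libraries. With quantile normalization, the calls over all genes in the LncND comparison became 4026 higher and 4658 lower, against 4613 and 3818 as tested, and those in the mimic comparison 4145 higher and 3854 lower, against 3094 and 4853.

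**Figure D1:**
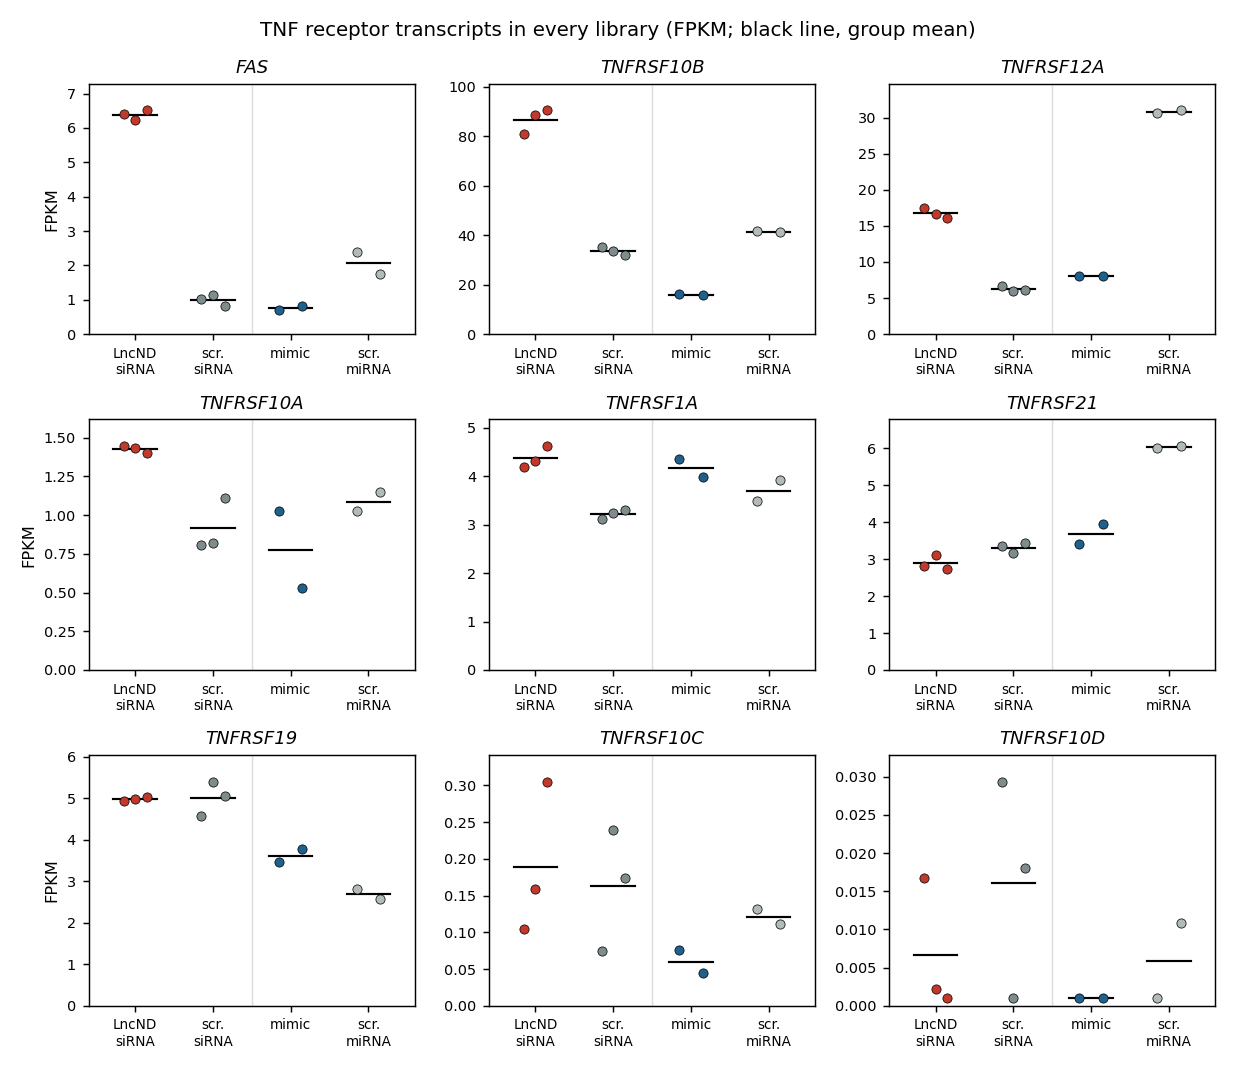
FPKM of the 9 receptors (y axis, linear, its own scale for each gene) by group (x axis; scr., scrambled), 1 point per library, with a black line at the group mean. FAS, TNFRSF10B and TNFRSF12A lie higher in the 3 LncND siRNA libraries than in the 3 scrambled siRNA libraries, and lower in the 2 mimic libraries than in the 2 scrambled miRNA libraries.

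FAS, the receptor for FASLG and a classical death receptor, showed the largest rise with LncND siRNA among the 9. FAS (hg19 chr10:90750287-90775542) had 6.42, 6.24 and 6.51 FPKM in the LncND siRNA libraries, against 1.02, 1.13 and 0.807 FPKM in the scrambled siRNA libraries. The groups do not overlap, which held in this direction for 38.7% of the genes tested (32.2% in the other direction, 70.9% in either), and the LncND siRNA libraries lie close together. The means were 6.39 ± 0.137 FPKM with LncND siRNA and 0.984 ± 0.163 FPKM with scrambled siRNA (SD, n = 3 each), a ratio of 6.49, and the log2 change was 1.90 ± 0.065 (SE; limma adjusted p = 1.59e-08), the 23rd highest of the 12601 genes. With the miR-143-3p mimic, FAS had 0.689 and 0.810 FPKM, against 2.40 and 1.74 FPKM with scrambled miRNA. The mimic libraries were both below the scrambled miRNA libraries, as for 48.2% of the genes tested (33.7% the other way, 81.9% in either), with a log2 change of -0.80 ± 0.11 (SE; limma adjusted p = 0.000208). That call was lost when no filter on low values was applied (adjusted p = 0.061), and with a pseudocount of 0.1 the log2 change was -1.34.

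The FAS row overlaps the ACTA2 row over 860 bp and FAS-AS1 over 1552 bp, and the strand setting of the quantification is not given in the sources used here, so reads in these stretches could not be told apart. ACTA2, smooth muscle actin, reached 29.5 FPKM in the siRNA table and 11.5 FPKM in the miRNA table, while FAS-AS1 stayed at or below 0.0558 FPKM. ACTA2 also moved in both comparisons, by 1.86 with LncND siRNA and by -1.05 with the mimic on the log2 scale. Its overlap with FAS was not tested as a source of FAS reads. RefSeq gives FAS 3 promoter windows on GRCh38.p14, and the one with the most motif matches (among them a p53 half-site at -122 and an NF-kappaB-type site at -157, counted from the start site) is shown. The other 2 FAS windows (chr10:88990548-88990847 and chr10:88990664-88990963, plus strand) begin further upstream and hold neither a p53 half-site nor an NF-kappaB-type site. The matches in the window shown are thus counted from a start site downstream of those of the other 2 FAS windows. For TNFRSF19, 1 of the 2 windows holds both motifs (at -145 and -171), and TNFRSF19 did not pass the test with LncND siRNA. The window shown is chr10:88991181-88991480 on the plus strand, with capitals marking the p53 half-site, the NF-kappaB-type site and the GC boxes (GGGCGG):

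FAS promoter: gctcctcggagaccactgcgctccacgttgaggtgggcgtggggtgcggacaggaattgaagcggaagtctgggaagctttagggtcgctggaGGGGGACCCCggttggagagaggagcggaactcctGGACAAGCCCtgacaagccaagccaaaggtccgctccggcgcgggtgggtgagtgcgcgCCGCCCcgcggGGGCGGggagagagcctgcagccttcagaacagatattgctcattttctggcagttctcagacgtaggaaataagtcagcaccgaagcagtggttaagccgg

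Both strands were searched with no rule against overlapping motifs. Among 35116 such RefSeq promoters of the same length, 6.63% hold a p53 half-site, 11.3% the NF-kappaB-type site and 45.0% a GC box, shares that are per window and not for the best of 3. These matches describe letters in a window and say nothing of binding.

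TNFRSF10B, the TRAIL receptor with a death domain also known as DR5, was the most abundant of the 9 in every group. TNFRSF10B (hg19 chr8:22877647-22926700) had 81.0, 88.6 and 90.5 FPKM in the LncND siRNA libraries, against 35.3, 33.6 and 32.1 FPKM in scrambled siRNA libraries. The groups are far apart, with means of 86.7 ± 5.02 and 33.7 ± 1.62 FPKM (SD, n = 3 each) for LncND siRNA and scrambled siRNA. Their ratio was 2.57 and the log2 change 1.34 ± 0.051 (SE; limma adjusted p = 2.74e-08), the 102nd highest gene. The mimic went the other way: TNFRSF10B had 16.1 and 15.7 FPKM in the mimic libraries, against 41.6 and 41.2 FPKM in scrambled miRNA libraries. The 2 mimic libraries differ by less than 1 FPKM and lie well below the controls, with a log2 change of -1.33 ± 0.045 (SE; limma adjusted p = 3.66e-08). TNFRSF10B overlaps LOC286059 over 959 bp, which reached 0.853 FPKM at most, and RHOBTB2 over 63 bp.

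TNFRSF12A, known as Fn14, binds TWEAK and signals through TRAF proteins without a death domain. It was second in level in every group (hg19 chr16:3070312-3072383). TNFRSF12A had 17.5, 16.7 and 16.0 FPKM in LncND siRNA libraries, against 6.64, 5.99 and 6.10 FPKM in scrambled siRNA libraries. The groups do not overlap, with a ratio of means of 2.68 and a log2 change of 1.29 ± 0.049 (SE; limma adjusted p = 2.54e-08). With the mimic, TNFRSF12A had 8.01 and 8.13 FPKM, against 30.6 and 31.0 FPKM with scrambled miRNA. This was the larger of its changes, -1.81 ± 0.049 on the log2 scale (SE; limma adjusted p = 1.64e-08), the 23rd lowest gene of 12558. The 2 scrambled controls themselves lie far apart, at 30.8 ± 0.29 FPKM in scrambled miRNA (n = 2) and 6.24 ± 0.349 FPKM in scrambled siRNA (n = 3), in tables normalized separately, and this gap was not tested.

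**Figure D2:**
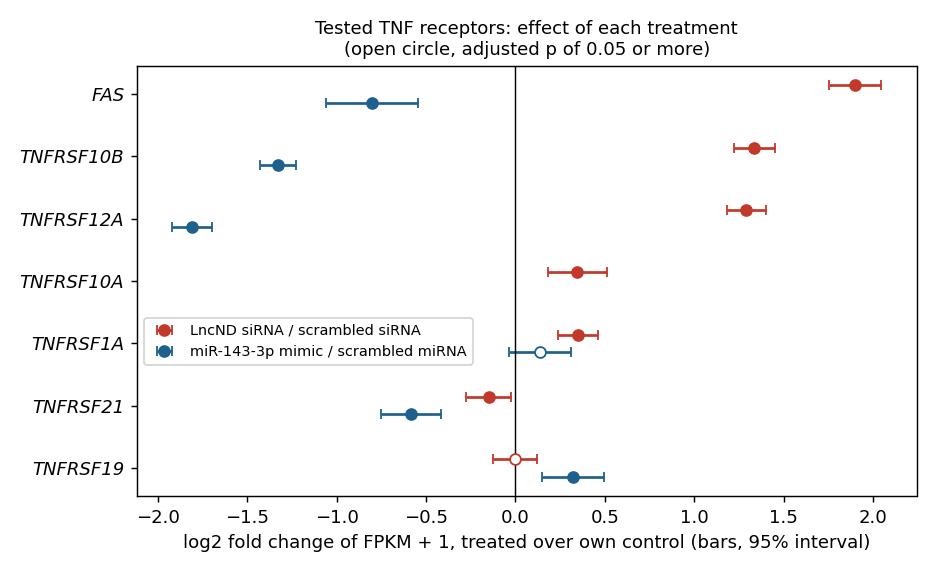
Log2 fold change of FPKM + 1, treated over its own control, with 95% intervals, for the receptors tested, in the LncND siRNA comparison and the miR-143-3p mimic comparison. FAS, TNFRSF10B and TNFRSF12A lie at 1.29 to 1.90 with LncND siRNA and at -1.81 to -0.80 with the mimic, while TNFRSF21 lies below 0 in both.

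TNFRSF1A and TNFRSF10A, which also carry a death domain, moved less with LncND siRNA than FAS and TNFRSF10B by the size of their log2 changes, and those differences between genes were not tested. TNFRSF1A, the main TNF receptor, had 4.20, 4.32 and 4.62 FPKM with LncND siRNA, against 3.12, 3.24 and 3.31 FPKM with scrambled siRNA. All LncND siRNA libraries lie above the scrambled siRNA libraries, by a ratio of 1.36 (log2 change 0.35 ± 0.050, SE; limma adjusted p = 0.00015). In the mimic comparison TNFRSF1A had 4.35 and 3.99 FPKM with the mimic and 3.49 and 3.91 FPKM with scrambled miRNA, a log2 difference of 0.14 (95% interval -0.037 to 0.31; limma adjusted p = 0.149). TNFRSF10A, the other TRAIL receptor with a death domain (DR4), had 1.44, 1.43 and 1.40 FPKM with LncND siRNA, against 0.810, 0.820 and 1.11 FPKM with scrambled siRNA. All LncND siRNA libraries lie above the scrambled siRNA libraries, with a log2 change of 0.35 ± 0.074 (SE; limma adjusted p = 0.00203), or 0.19 (adjusted p = 0.0395) with quantile normalization. TNFRSF10A was not tested with the mimic, where it had 1.03 and 0.526 FPKM, against 1.03 and 1.15 FPKM with scrambled miRNA, and these ranges overlap.

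TNFRSF21, the death receptor DR6, was the only one of the 9 called lower in both comparisons, as were 16.4% of the 12327 genes tested in both. TNFRSF21 had 2.83, 3.12 and 2.73 FPKM with LncND siRNA, against 3.35, 3.16 and 3.43 FPKM with scrambled siRNA. The highest LncND siRNA library lies just below the lowest scrambled siRNA library, and the log2 change was -0.15 ± 0.056 (SE; limma adjusted p = 0.0369). This call did not survive leaving out scrambled siRNA replicate 1 (adjusted p = 0.0939) or 3 (0.116), or LncND siRNA replicate 1 (0.0737) or 3 (0.12), and without a filter on low values it gave 0.0842. With quantile normalization the log2 change was -0.26 (adjusted p = 0.00249). With the mimic TNFRSF21 had 3.42 and 3.96 FPKM, against a mean of 6.03 ± 0.0359 FPKM with scrambled miRNA (SD, n = 2). The mimic libraries lie below both scrambled miRNA libraries, with a log2 change of -0.59 ± 0.075 (SE; limma adjusted p = 0.000109).

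TNFRSF19 (TROY), which lacks a death domain, did not pass the test with LncND siRNA, at 4.94, 4.98 and 5.03 FPKM, against 4.58, 5.39 and 5.05 FPKM with scrambled siRNA. The scrambled siRNA libraries enclose the LncND siRNA libraries, and the 95% interval of the log2 change was -0.13 to 0.12. It was the only one of the 9 called higher with the mimic, at 3.46 and 3.77 FPKM, against 2.82 and 2.57 FPKM with scrambled miRNA. The log2 change was 0.32 ± 0.078 (SE; limma adjusted p = 0.00527), and with no filter on low values the adjusted p was 0.0799.

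The decoy receptors were at the bottom of the order. TNFRSF10C, a GPI-anchored TRAIL receptor without a death domain, had 0.104, 0.159 and 0.304 FPKM in LncND siRNA libraries and 0.0743, 0.239 and 0.174 FPKM in scrambled siRNA libraries. In the miRNA table it had 0.0753 and 0.0449 FPKM with the mimic and 0.131 and 0.111 FPKM with scrambled miRNA. TNFRSF10D, a TRAIL receptor with a truncated death domain, did not exceed 0.0293 FPKM in any library. Converted with the estimated depth, TNFRSF10D had at most 3.48 fragments in a library and TNFRSF10C 1.07 to 13.4, so neither was tested. The 4 TNFRSF10 genes stand side by side within 205.0 kb of chromosome 8 (hg19 chr8:22877647-23082680), where only TNFRSF10B was abundant, TNFRSF10A was around 1 FPKM and the decoys were lowest, with TNFRSF10C at 0.0449 to 0.304 FPKM and TNFRSF10D at 0.001 to 0.0293 FPKM.

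In the order of mean levels, TNFRSF10B stood first and TNFRSF12A second in all 4 groups, and TNFRSF10C and TNFRSF10D last. Neighbours in the order had ranges that overlapped between TNFRSF21 and TNFRSF1A and between FAS and TNFRSF10A in scrambled siRNA cells. In mimic cells the overlapping neighbours were TNFRSF21 with TNFRSF19, and TNFRSF10A with FAS. FAS moved most in rank, standing at place 3 in LncND siRNA cells and place 7 in mimic cells.

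The comparisons share no control libraries, so the 2 effects were compared by testing their difference in 1 fit of all 10 libraries. This tests whether the effects are unequal, not whether their directions are opposite. Of the 6 receptors tested, 4 had a higher effect with LncND siRNA than with the mimic, 1 a lower effect and 1 did not pass, against a background of 38.1% higher and 22% lower of 12327 genes (60.2% in either direction). For TNFRSF12A the difference was 3.10 ± 0.071 on the log2 scale (SE; limma adjusted p = 6.62e-12), for FAS 2.70 ± 0.13 (adjusted p = 2.59e-09) and for TNFRSF10B 2.67 ± 0.073 (adjusted p = 2.26e-11). These rank 10th, 14th and 15th highest among the genes tested. TNFRSF21 differed by 0.44 ± 0.092 (adjusted p = 0.00122) and TNFRSF19 by -0.33 ± 0.091 (adjusted p = 0.00736), while TNFRSF1A did not pass (0.21, adjusted p = 0.0511), though it did under 4 of the alternatives, among them without LncND siRNA replicate 1 (0.0381), without mimic replicate 1 (0.0376) and without scrambled miRNA replicate 1 (0.0279).

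**Figure D3:**
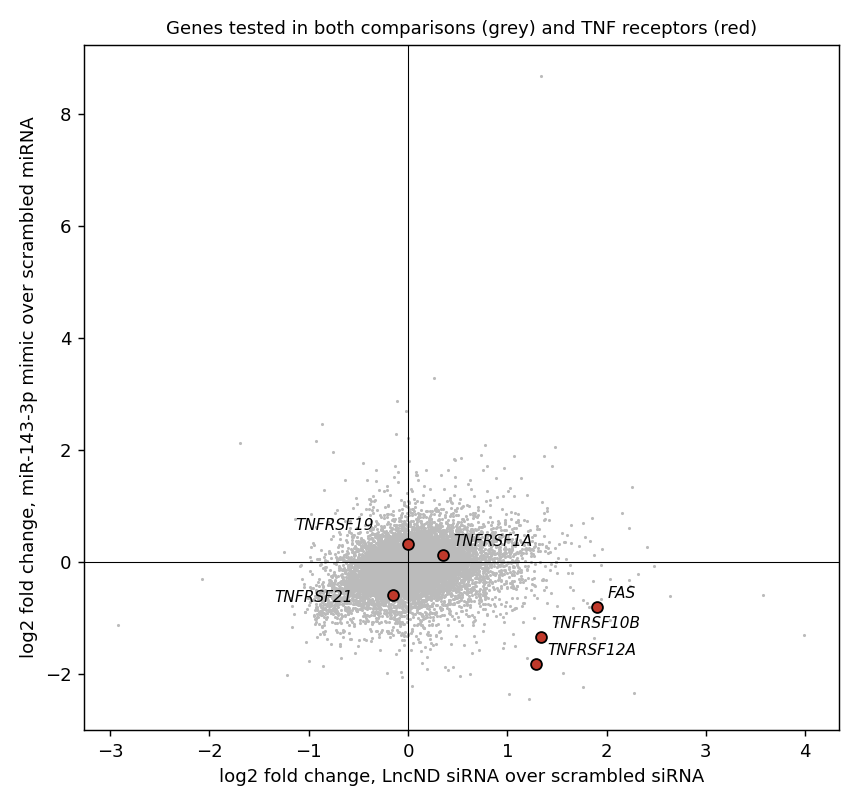
Log2 fold change with LncND siRNA (x axis) against log2 fold change with the miR-143-3p mimic (y axis) for the genes tested in both tables, with the receptors marked. TNFRSF10B and TNFRSF12A lie in the lower right corner, past 1 and -1, with 12 other genes.

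A rise of at least 1 with LncND siRNA together with a fall of at least 1 with the mimic was found for 14 of 12327 genes (0.114%), and TNFRSF10B and TNFRSF12A were 2 of them. The others were ACTA2, CCL2, CDKN1A, CLU, ECEL1, ENO3, GDF15, ISLR, RAB26, RGS2, TFPI2 and TLCD1. CDKN1A, the p53-induced cell cycle inhibitor, stood at 1.87 with LncND siRNA and -1.35 with the mimic. GDF15, a stress-induced cytokine, stood at 2.28 and -2.33 in the same order. These values were singled out after they were seen, and a part of p53 in the changes was not tested. At any size, 1310 genes (10.6%) were higher with LncND siRNA and lower with the mimic. By Euclidean distance over the 10 libraries, taken on log2(FPKM + 1) less the mean of each table's control, the gene closest to TNFRSF12A was RAB26 (0.296), to TNFRSF10B ISLR (0.514) and to FAS FSTL3 (0.332), with ACTA2 at 0.397 from FAS. The median distances over 12326 genes were 3.37, 2.97 and 3.48 for TNFRSF12A, TNFRSF10B and FAS. Such distances rest on the same changes as above, so a strongly changed gene lies far from most genes. For TNFRSF1A, TNFRSF19 and TNFRSF21 the medians were 0.868, 0.821 and 0.997.

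The mimic carries the sequence of miR-143-3p, whose seed (bases 2 to 8) pairs with matching sites in 3′ UTRs. Shown with the seed in capitals, as RefSeq gives it on GRCh38.p14:

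hsa-miR-143-3p: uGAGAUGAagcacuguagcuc

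Complementary matches (TCATCTCA, TCATCTC or CATCTCA) were counted in the longest GENCODE 29 3′ UTR of each gene. Of the 9 receptors 4 had at least 1, against 22.0% of 19111 genes searched. TNFRSF10B had 2, TNFRSF10D 3, TNFRSF19 2 and TNFRSF1A 1, while FAS, TNFRSF10A, TNFRSF10C, TNFRSF12A and TNFRSF21 had none. Among the 6 receptors tested with the mimic, 4 were lower: TNFRSF10B with 2 matches, 1 of them the full TCATCTCA, and TNFRSF12A, FAS and TNFRSF21 with none. TNFRSF19 was higher with 2 matches, and TNFRSF1A did not pass the test with 1. The second TNFRSF10B match is CATCTCA, and neither is printed with its surroundings. The matches in TNFRSF19 (GRCh38 chr13:23674476-23674504 and chr13:23674947-23674975, plus strand) and TNFRSF1A (GRCh38 chr12:6331704-6331732, minus strand) are shown as the other matches in tested receptors, with capitals marking the match:

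TNFRSF19 first match: tagttagcacaTCATCTCctactttagcc
TNFRSF19 second match: tgtgtctggtaCATCTCAtgacctcaatt
TNFRSF1A match: cccagccggctTCATCTCttcttgaaatc

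Across the genes tested, 46.3% of the 2780 with a match were lower with the mimic, against 36.9% of the 8416 without one, with median log2 changes of -0.124 and -0.0482. In the LncND siRNA comparison, where no mimic was given, 36.2% of the 2752 genes with a match were lower, against 29.6% of the 8425 without one, with medians of -0.0172 and 0.0339. Whether the gap differs between the comparisons was not tested. A letter match does not show that a site is used, and no match says only that these letters are missing from this UTR.

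Other genes of the pathway are given by mean ± SD over 3 siRNA or 2 miRNA libraries a group. Among ligands, FASLG and TNFSF10 were not detected. Both stood at 0.001 FPKM, the floor of the tables, in all 10 libraries. Of 20 TNF family ligands and other binders listed, 3 were tested in each comparison. With LncND siRNA 1 fell and 2 did not pass, and with the mimic 1 rose and 2 did not pass. TNFSF12, the ligand of TNFRSF12A, averaged 5.25 ± 0.185 FPKM with LncND siRNA and 8.25 ± 0.00603 FPKM with scrambled siRNA (SD, n = 3 each), a log2 change of -0.57 (limma adjusted p = 1.39e-06). APP, which binds TNFRSF21, averaged 248.4 ± 3.84 FPKM with the mimic and 206.3 ± 2.61 FPKM with scrambled miRNA (SD, n = 2 each), a log2 change of 0.27.

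Of 22 other TNF receptors listed, 15 were too low to test. With LncND siRNA 6 of the 7 tested rose and 1 fell, with a median log2 change of 0.921, where 36.6% of all genes rose and the median over all genes was 0.0243. NGFR and TNFRSF6B, both among the 6, passed the filter only through the LncND siRNA libraries, so this count and median are descriptions. EDA2R, a further p53-responsive receptor, averaged 16.5 ± 1.26 FPKM with LncND siRNA and 3.28 ± 0.246 FPKM with scrambled siRNA, and NGFR, the p75 neurotrophin receptor, 2.23 ± 0.2 and 0.434 ± 0.0696 FPKM. The 1 that fell, RELT, lost its call in 5 alternatives. With the mimic 2 rose, 3 fell and 2 did not pass, with a median of 0.0974 against -0.0624 over all genes. With no filter on low values none of the list was called higher with the mimic (TNFRSF25 adjusted p = 0.157, NGFR 0.084). RELL1 fell by 0.57 on the log2 scale (limma adjusted p = 0.000166), while EDA2R fell by 0.29 and lost its call without scrambled miRNA replicate 1 (adjusted p = 0.0678) and with no filter on low values (0.109).

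The counts for the lists that follow stand beside 66.9% of all genes called with LncND siRNA and 63.3% with the mimic, and nothing particular to a list is read from them. Adaptors and initiator caspases did not move one way. Of 12 listed, 10 were tested, and with LncND siRNA 4 rose and 3 fell, with a median of 0.0151. TRADD, the TNFRSF1A adaptor, averaged 8.91 ± 0.505 FPKM with LncND siRNA and 5.86 ± 0.294 FPKM with scrambled siRNA, and FADD, the adaptor of FAS and TNFRSF10B, 17.2 ± 0.724 and 14.1 ± 0.556 FPKM. CASP8AP2, which binds caspase-8, fell by 0.60 on the log2 scale. CASP8 itself, the initiator caspase, averaged 0.233 FPKM with LncND siRNA and 0.146 FPKM with scrambled siRNA and was too low to test. With the mimic 2 rose and 2 fell, with a median of -0.0122. FADD averaged 16.4 ± 0.27 FPKM with the mimic and 14.1 ± 0.299 FPKM with scrambled miRNA.

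Downstream, changes also ran in both directions. Of 15 TRAF and ubiquitin regulators tested of 18, 4 rose and 5 fell with LncND siRNA (median 0.0428), led by TRAF4 at 64.9 ± 1.5 FPKM with LncND siRNA and 41.3 ± 1.46 FPKM with scrambled siRNA. With the mimic 6 rose and 3 fell (median 0.0464), and MAP3K5 (ASK1), a stress kinase that TRAF2 activates, averaged 8.13 ± 0.207 FPKM with the mimic and 2.09 ± 0.137 FPKM with scrambled miRNA (log2 change 1.57, limma adjusted p = 1.72e-07). Of 12 effector caspases and their regulators, all tested, 5 rose and 3 fell with LncND siRNA (median 0.00528), and 2 rose and 6 fell with the mimic (median -0.125). DIABLO, which frees caspases from their inhibitors, averaged 78.1 ± 0.5 FPKM with LncND siRNA and 40.8 ± 1.07 FPKM with scrambled siRNA. CYCS, cytochrome c, averaged 27.9 ± 1.44 FPKM with the mimic and 41.6 ± 2.12 FPKM with scrambled miRNA. Of 11 NF-kappaB factors and kinases tested of 12, 4 rose and 3 fell with LncND siRNA (median 0.0712), and 3 rose and 1 fell with the mimic (median -0.0201). NFKBIE, an inhibitor of NF-kappaB, averaged 7.26 ± 0.321 FPKM with LncND siRNA and 4.3 ± 0.462 FPKM with scrambled siRNA. The largest falls called with LncND siRNA were TAB2 among the TRAF and ubiquitin regulators (log2 change -0.42) and DFFB among the effector caspases and their regulators (-0.25). Among the NF-kappaB factors and kinases it was NFKB1 (-0.29). With no filter on low values, the mimic calls fell to 3 lower among the effector caspases and their regulators, and to 1 higher and 0 lower among the adaptors and initiator caspases.

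**Figure D4:**
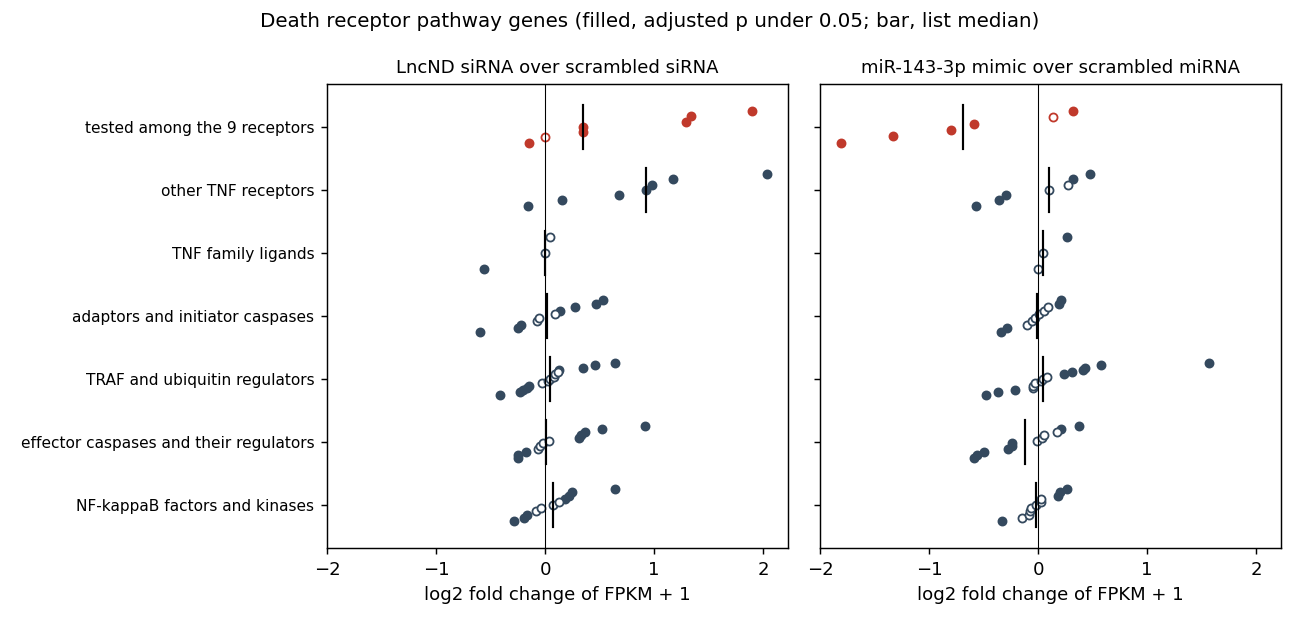
Log2 fold change of each tested gene in the pathway lists and among the 9 receptors, in the LncND siRNA comparison and the miR-143-3p mimic comparison (filled points, adjusted p under 0.05; black bar, list median). Of the 7 other TNF receptors tested, 6 sit above 0 with LncND siRNA, with EDA2R highest at 2.03, while the remaining lists spread to both sides of 0.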

How the data were processed

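Poly(A) RNA of 10 SH-SY5Y libraries (MirVana RNA, TruSeq stranded kit, NextSeq500) was measured as FPKM, deposited by the authors as 1 siRNA and 1 miRNA table. Per the submitters' processing notes, TopHat (listed as 1.0.0), Cufflinks and hg19 were used. Annotation, strand setting and filter were not given in the sources used here. FPKM depends on each library's total, and 0.001 stands for 0. Rows off the assembled chromosomes (1304) and rows with status words were left out, and a repeated name kept its row with the highest mean.

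Tests were 2-sided limma 3.58.1 fits (R 4.3.3, eBayes with trend) of log2(FPKM + 1), with each treatment tested within its own table and the difference of effects in 1 fit of all 10 libraries. The single-table fits were checked on simulated data with independent noise and few changed genes, unlike these data, where most genes were called. Other pathway genes were named from the up to 3 called genes with the largest change per list and direction, and likeness from the 3 nearest genes. FASLG, TNFSF10, CASP8, CDKN1A and GDF15 were added after their values were seen. Members and lists were chosen with earlier results of these data known. Alternatives covered the pseudocount (0.1), filter (none, 0.5 FPKM), scaling, trend, replicate block and left-out libraries.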

Additional observations from a re-analysis of the deposited data

Results flagged for a closer look

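For 5 of the 6 receptors tested in both tables (of 9) the effect of LncND siRNA differed from that of the miR-143-3p mimic in a test of the difference itself (limma fit of 10 libraries, Benjamini-Hochberg adjusted over 12327 genes, of which 60.2% differed). On the log2 scale, the LncND siRNA effect minus the mimic effect was 3.10 for TNFRSF12A, 2.70 for FAS and 2.67 for TNFRSF10B, each higher with LncND siRNA and lower with the mimic. It was 0.44 for TNFRSF21, which was lower in both, and -0.33 for TNFRSF19, which was called only with the mimic. The treatments also differ in dose, reagent and control, so the source of a difference cannot be told apart.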

How the results depend on the processing

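The rises of FAS, TNFRSF10B, TNFRSF12A, TNFRSF10A and TNFRSF1A with LncND siRNA, and the falls of TNFRSF10B, TNFRSF12A and TNFRSF21 with the mimic, kept direction and call under all alternatives run. The receptors lower with LncND siRNA numbered 0 with no filter on low values and 0 with the replicate block, where TNFRSF21 gave an adjusted p of 0.0693, and 0 to 1 when each library was left out. TNFRSF19 with LncND siRNA, near 0 throughout, changed sign without scrambled siRNA replicate 2 (0.042), scrambled siRNA replicate 3 (0.0025) or LncND siRNA replicate 1 (0.0016), within -0.055 to 0.042 over all libraries left out. The receptors higher with the mimic numbered 0 with no filter and 2 with quantile normalization, where TNFRSF1A was added (adjusted p = 0.0346). Over all genes, calls higher with the mimic numbered 2000 with no filter, and lower differences of effects 4176 with quantile normalization. The causes were not tested. Same-numbered libraries correlated in their deviations at 0.0682, 0.207 and -0.0532 for siRNA, against -0.159 to 0.0779 for libraries of unlike number. The 0.135 for miRNA cannot decide on pairing, because with 2 libraries a group the deviations mirror each other. Whether same-numbered libraries were paired is therefore not settled. The replicate block changed no other receptor's call. TNFRSF10C and TNFRSF10D, with at most 13.4 and 3.48 estimated fragments in a library, were below the filter and not tested.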
